A study of Homo sapiens with 32 samples.

Results

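The clustered protocadherin genes are the protein-coding genes on chromosome 5 whose symbols begin with PCDHA, PCDHB or PCDHG. By that rule the GENCODE 44 annotation held 53 of them among 19970 protein-coding genes on chromosomes 1 to 22 and X. There were 15 PCDHA genes (PCDHA1 to PCDHA13, PCDHAC1 and PCDHAC2), 16 PCDHB genes and 22 PCDHG genes. All lie on the plus strand within 727 kb, chr5:140786136-141512977 in the hg38 build.

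Protocadherins are cell adhesion proteins of the cadherin superfamily that neurons use to tell their own branches from those of other cells. Each PCDHA and PCDHG gene is a variable first exon with a promoter of its own, spliced to constant exons shared by its whole cluster, while each PCDHB gene is complete in itself. Neurons switch on a varying few of these promoters, and CTCF and cohesin loop distant enhancers onto those chosen. The C-type isoforms, PCDHAC1, PCDHAC2, PCDHGC3, PCDHGC4 and PCDHGC5, sit at the downstream ends of their clusters and are expressed more uniformly than the rest. ZNF143, SP1, NRF1 (nuclear respiratory factor) and YY1 are sequence-specific transcription factors found mostly at promoters of widely expressed genes.

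The positions came from chromatin immunoprecipitation followed by sequencing in HEK293T, an established line from human embryonic kidney. Every sample was of the clone ZD29, in which ZNF143 is fused to an inducible degron, a tag that lets dTAGV-1 direct the protein to destruction. The 32 samples formed 10 groups, in which cells were either untreated or held in 50 nM dTAGV-1 for 30 minutes. SP1, NRF1 and YY1 antibodies had 4 untreated and 4 treated samples each, and the HA antibody against tagged ZNF143 and the mock precipitation had 2 and 2.

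What could be read here were 4 lists of peak summits, the points of highest signal within peaks, 1 list per antibody. The labels tie the SP1 and ZNF143 lists to untreated and treated samples alike. For NRF1 and YY1 the labels name no list, and pooling of their samples was assumed. No list was labelled with 1 sample or treatment, so neither replicate error nor an effect of dTAGV-1 could be given, and read depth was unknown. Each summit carries a score, a peak caller's p-value or q-value as −log10, which was compared only within its list. On chromosomes 1 to 22 and X the lists held 16165 (ZNF143), 126181 (SP1), 39180 (NRF1) and 106578 (YY1) summits. The 53 genes are the whole family and neighbours in 1 region, so counts are descriptions with no test.

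The 12 genes with a summit at their start are shown first by the 100 bases upstream of it, because a short word recurs in these promoters. PCDHB8 alone of the 12 lacks it. The lines give the plus strand, 5′ to 3′, from RefSeq's promoter table (GRCh38.p14), and end at the base before the GENCODE start. Capitals mark every CGCT, the letters of the core of the conserved sequence element known from protocadherin promoters. The word is short, and a marked copy need not be that element.
PCDHA2, chr5:140794752-140794851: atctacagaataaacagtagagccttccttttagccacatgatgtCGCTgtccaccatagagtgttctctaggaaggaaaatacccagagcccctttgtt
PCDHB7, chr5:141172544-141172643: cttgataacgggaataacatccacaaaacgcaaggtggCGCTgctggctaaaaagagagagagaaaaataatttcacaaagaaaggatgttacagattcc
PCDHB8, chr5:141177690-141177789: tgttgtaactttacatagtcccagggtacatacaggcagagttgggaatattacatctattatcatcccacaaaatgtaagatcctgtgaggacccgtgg
PCDHGA3, chr5:141343729-141343828: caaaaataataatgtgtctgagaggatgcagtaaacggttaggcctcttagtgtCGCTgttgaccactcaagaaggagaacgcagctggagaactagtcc
PCDHGA6, chr5:141373791-141373890: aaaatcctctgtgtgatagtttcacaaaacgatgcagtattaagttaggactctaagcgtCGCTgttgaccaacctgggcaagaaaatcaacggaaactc
PCDHGA7, chr5:141382639-141382738: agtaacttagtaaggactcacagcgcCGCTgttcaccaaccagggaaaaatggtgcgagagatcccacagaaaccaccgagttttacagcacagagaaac
PCDHGB5, chr5:141397847-141397946: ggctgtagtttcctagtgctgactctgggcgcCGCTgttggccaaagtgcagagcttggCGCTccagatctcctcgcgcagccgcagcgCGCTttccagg
PCDHGA10, chr5:141412887-141412986: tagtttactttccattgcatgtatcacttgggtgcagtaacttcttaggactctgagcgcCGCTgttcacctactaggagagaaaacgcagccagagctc
PCDHGB7, chr5:141417545-141417644: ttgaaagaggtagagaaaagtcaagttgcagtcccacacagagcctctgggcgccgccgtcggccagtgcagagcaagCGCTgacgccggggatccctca
PCDHGA11, chr5:141420947-141421046: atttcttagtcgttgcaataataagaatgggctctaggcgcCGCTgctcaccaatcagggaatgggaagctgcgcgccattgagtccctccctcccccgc
PCDHGC3, chr5:141475847-141475946: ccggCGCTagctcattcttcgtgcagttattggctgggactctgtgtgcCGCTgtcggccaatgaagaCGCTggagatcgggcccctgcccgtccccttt
PCDHGC4, chr5:141484897-141484996: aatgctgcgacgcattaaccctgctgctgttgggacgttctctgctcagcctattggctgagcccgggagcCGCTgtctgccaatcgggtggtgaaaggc

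CGCT is short and was searched on the gene's strand alone, in the 250 bases upstream of the start, after these sequences had been seen. It stood there in 48 of the 53 genes (90.6%) against 53.1% of all protein-coding genes. Upstream of any coding transcript start the contrast was smaller, 50 of the 53 (94.3%) against 72.9%. From the gene start, the nearest copy lay at a median of −41.5 bp in the 48, and at −76.0 bp in all genes with a copy. The 8 bases that followed varied more. Among 65 copies with at least 8 bases before the start, the commonest base made up 33.8% to 66.2% of copies by position, and none reached 70%. The highest shares were G just after CGCT (66.2%), C at position 10 counted from the first C (64.6%) and A at position 12 (61.5%). These shares were not computed for other genes. The longer word GGCGCT was present in 13 of 16 PCDHB, 3 of 22 PCDHG and 0 of 15 PCDHA genes, with 10.9% among all genes. CGCT did not mark the genes with summits: 11 of 12 genes with a summit had it (91.7%), as did 37 of the 41 without (90.2%).

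Most clustered protocadherin starts held no summit of any list. Within 500 bp of the 5′ end, 12 of the 53 genes (22.6%) had a summit of at least 1 list, against 62.7% of all protein-coding genes. ZNF143 had none at any of the 53 starts, where 31.7% of all genes had one. SP1 marked 4 genes (7.55%, against 59.1%), NRF1 marked 3 (5.66%, against 48.3%) and YY1 marked 11 (20.8%, against 57.8%). All of these shares were under the share of all genes. With the lists cut to an equal 16165 summits, the highest by score, 3 genes had YY1 (5.66%, against 36.0%) and none had SP1 (32.6% of all). SP1, NRF1 and YY1 occurred together at 2 starts (3.77%, against 45.5%), and no start had all 4 lists.

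The clusters were unequal. Any summit was present at 1 of 15 PCDHA, 2 of 16 PCDHB and 9 of 22 PCDHG starts. Every SP1 and NRF1 summit at a clustered protocadherin start was in PCDHG. In that cluster 8 of 22 genes had YY1 (36.4%), 4 had SP1 (18.2%) and 3 had NRF1 (13.6%). Of the PCDHGA genes 5 of 12 had a summit, and of the PCDHGB genes 2 of 7. The C-type isoforms, counted over PCDHA and PCDHG together, had one at 2 of 5, PCDHGC3 and PCDHGC4, both in PCDHG. The commonest pattern was YY1 alone, at 7 genes. SP1 with YY1 stood at 2, all 3 of SP1, NRF1 and YY1 at 2, and NRF1 alone at 1. Clusters were not tested against each other.

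**Figure D1:**
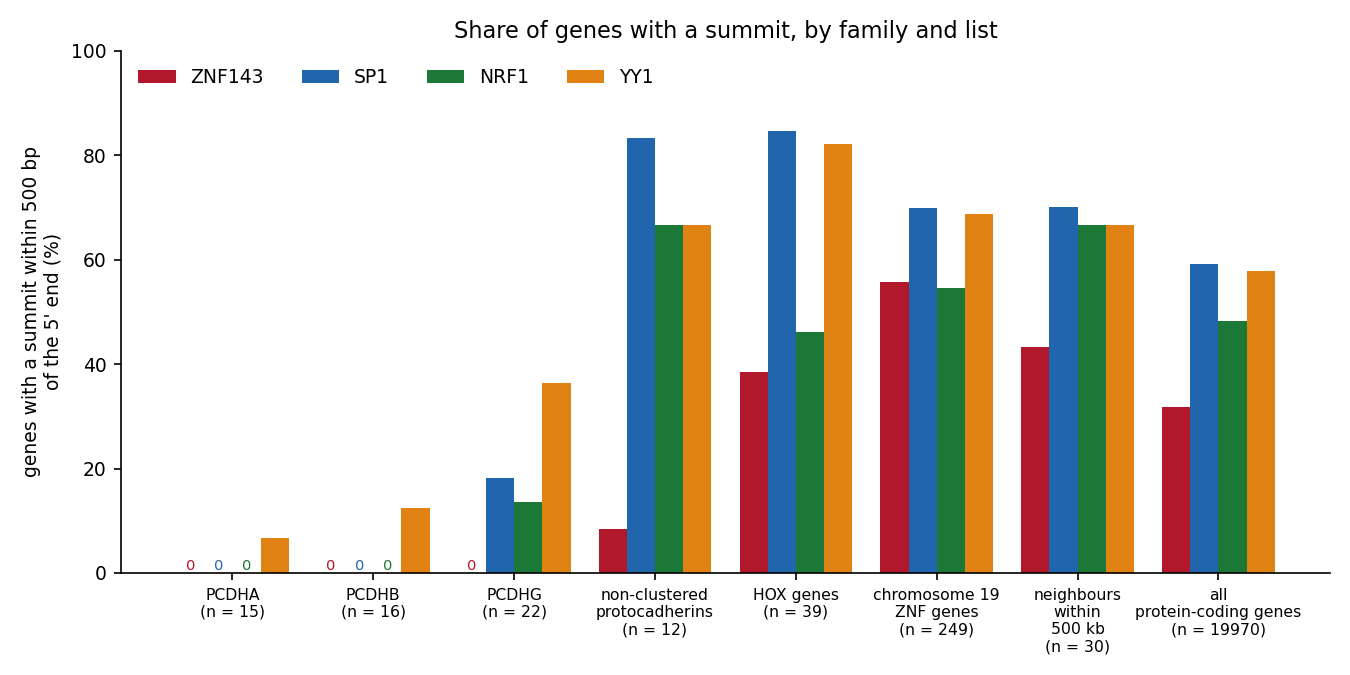
Bars give the percentage of genes with a summit within 500 bp of the 5′ end (vertical axis, from 0) for each list, by gene family, with the number of genes under each name. ZNF143 stands at 0 in all 3 protocadherin clusters, and PCDHG, with YY1 at 36.4%, is the highest of them. The right-hand group is all 19970 protein-coding genes, and the 30 neighbours include 3 genes that start inside the span.

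In PCDHA the only summit within 500 bp of a gene start was a YY1 summit 28 bp downstream of PCDHA2, with a score of 2.41, near the lowest score in the list (2.00). It ranked within the top 95.9% of that list, and 99.7% of all genes with a YY1 summit had one scoring at least as high. The C-type isoforms PCDHAC1 and PCDHAC2 had no summit of any list. PCDHA11 had a YY1 summit of 5.37 at 754 bp past the start of its gene record, which is 20 bp upstream of an annotated coding transcript start. A weaker one of the same peak, 2.14, lay at 1168 bp, and its central 31 bases occur 12 times in the genome, this place included. The other copies lie 360 to 418 bp past the gene starts of PCDHA paralogs, and 971 bp past that of PCDHA9.

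In PCDHB the highest-scoring YY1 summit at a gene start was that of PCDHB7, 92 bp upstream of the start, at 141172552. Its score of 183 was in the top 7.90% of the list, but 42.7% of all genes with a YY1 summit had one scoring at least as high. The PCDHB7 summit was the only YY1 summit at the 53 starts with an exact copy of the YY1 consensus within 500 bp of the start. PCDHB8 had a YY1 summit of 4.61 at +56 bp, which is 3 bp from the start of a long noncoding RNA (lncRNA) gene, ENSG00000279472. The 31 bases around that one occur also 15 bp past the start of PCDHB13, so reads within them cannot be assigned to either gene. PCDHB1, which lies apart from the rest of its cluster, had no summit, and neither did the other 13 PCDHB genes.

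In PCDHG the best YY1 summits of the genes ran in score from 2.15 to 205. PCDHGA11 had the highest score, 205, at −4 bp, in the top 7.07% of the list. Of all genes with a YY1 summit, 39.8% had one scoring at least as high. PCDHGA7 followed with 92.5 at +59 bp and PCDHGC3 with 56.4 at +38 bp. PCDHGC4 held 2 YY1 summits of 1 peak, 23.1 at +67 bp and 7.92 at −289 bp. PCDHGB7 had 21.9 at −27 bp, PCDHGA3 19.6 at +11 bp, PCDHGA6 8.51 at +33 bp and PCDHGA10 2.15 at −43 bp. Of these 8 genes, 4 also had an SP1 or NRF1 summit.

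The SP1 summits at PCDHG starts were upstream in every case. PCDHGC4 had 78.5 at −14 bp, PCDHGC3 29.5 at −35 bp, PCDHGA11 16.9 at −13 bp and PCDHGB7 6.96 at −77 bp. The best of them ranked in the top 20.7% of the list, and 72.8% of all genes with an SP1 summit had one scoring at least as high. Of these 4 genes, PCDHGC4 alone had a copy of the SP1 word GGGCGG within 500 bp.

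NRF1 was present at PCDHGB5 with 201 at −24 bp, at PCDHGB7 with 54.8 at +10 bp and at PCDHGC3 with 10.9 at −100 bp. The PCDHGB5 summit was in the top 11.6% of its list, and 35.2% of all genes with an NRF1 summit had one scoring at least as high. PCDHGB5 was the only start with NRF1 and no YY1 or SP1. The central 31 bases of its summit occur a second time, 21 bp upstream of PCDHGB4. Those of the YY1 summit at PCDHGB7 occur also 62 bp upstream of PCDHGB6. Of the C-type isoforms of this cluster, PCDHGC5 had no summit, while its neighbours PCDHGC3 and PCDHGC4 had several.

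**Figure D2:**
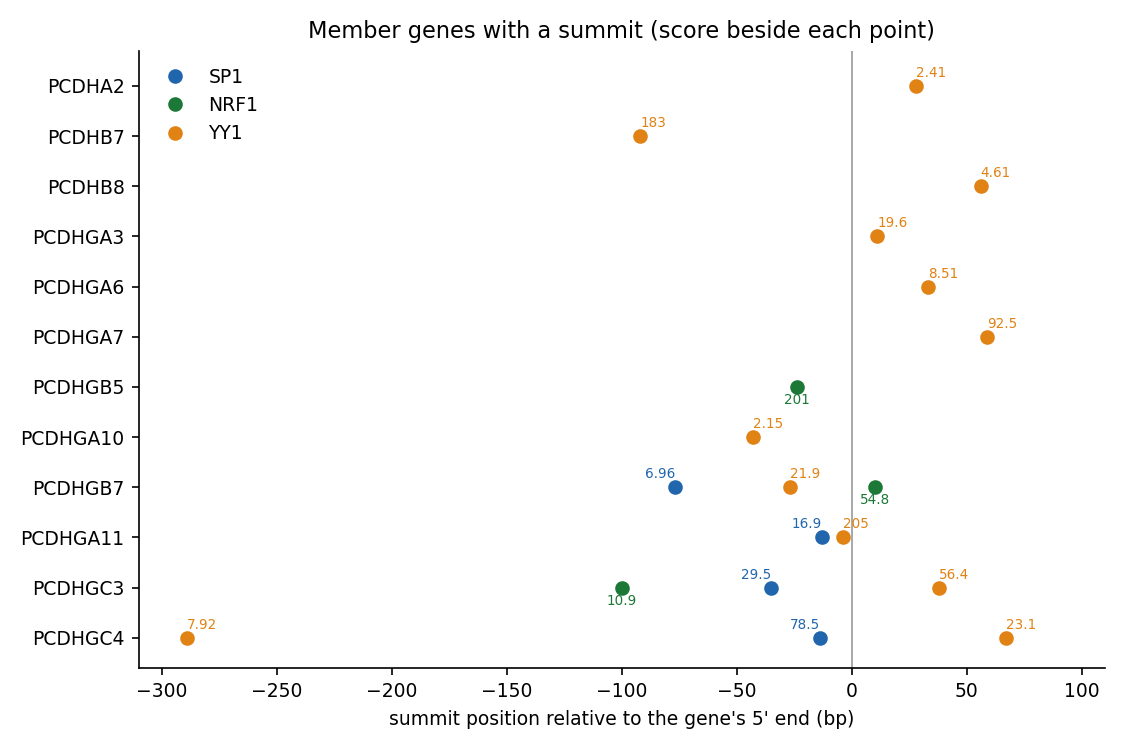
Each point is a summit at 1 of the 12 genes, placed by its distance from the 5′ end in bp (horizontal axis) and printed with its score; genes run in chromosome order from top to bottom. All points but the YY1 summit at −289 bp of PCDHGC4 lie within 100 bp of the start.

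Where summits were present, they sat close to the start. Taking each gene's best summit, the median distance was 24.5 bp for SP1 (4 genes), 24 bp for NRF1 (3) and 38.0 bp for YY1 (11), and all 18 lay within 100 bp. Among all genes with a summit the medians were 93.0, 112 and 146 bp, and 52.8%, 46.7% and 35.2% lay within 100 bp. For SP1 and YY1 their scores were low beside the best summits of all genes with a summit at the start. The median score was 23.2 against 197 for SP1, and 21.9 against 139 for YY1. NRF1 had 54.8 against 48.0. Within their whole lists the SP1 and YY1 summits were not low, since both medians were above the list median. The SP1 summits lay 5 to 57 bp from the nearest CGCT, measured to its C at the third position. The NRF1 summits lay 6 to 30 bp from it, and the YY1 summits 5 to 131 bp where a copy was present. CGCT was searched only a short way upstream of the start, and these summits lay within 100 bp of the start. Short distances between them follow from that, so they cannot show whether summits favour CGCT. The same distances were not computed for other genes.

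The consensus sequences of the factors were scarce at these starts. An exact YY1 consensus AANATGGCG was within 500 bp of 1 of the 53 (1.89%, against 7.54% of all genes), both strands searched. That gene was PCDHB7. With 1 mismatch allowed, 24 genes had it (45.3%), against 46.8%. The NRF1 consensus GCATGCGC was at 0 starts (6.00% of all), and so was the ZNF143 consensus (6.66%), which with 1 mismatch was at 23 (43.4%, against 70.9%). GGGCGG was at 15 (28.3%, against 72.0%), of which 10 were PCDHA genes, where no SP1 summit was found, 1 was a PCDHB and 4 were PCDHG genes. PCDHAC1 held 5 copies of it and no summit. The CTCF consensus was at 0 of the 53 (1.04% of all genes), and with 1 mismatch at PCDHB9 alone. A match is a match of letters and not a site in use, and no match says only that these letters were not in the window.

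The 3 sites that follow are printed as plus-strand hg38 sequence, since they hold an exact YY1 or CTCF consensus beside a summit. Capitals mark the YY1 consensus in the PCDHB7 site, and the CTCF consensus in the one between PCDHAC2 and PCDHB1 and in the last PCDHG exon; all are on the minus strand. The PCDHB7 copy lies 24 bp from the summit. The site between PCDHAC2 and PCDHB1 also holds the SP1 word GGGCGG, nearer to the SP1 summit than the CTCF consensus and left in small letters.
PCDHB7 YY1 site, chr5:141172494-141172593: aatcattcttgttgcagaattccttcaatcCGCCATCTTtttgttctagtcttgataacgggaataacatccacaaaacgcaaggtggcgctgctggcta
between PCDHAC2 and PCDHB1, chr5:141041291-141041390: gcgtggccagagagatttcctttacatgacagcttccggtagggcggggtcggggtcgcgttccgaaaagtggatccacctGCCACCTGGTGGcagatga
last PCDHG exon, chr5:141512494-141512523: ccccagtgcGCCCCCTAGTGGccatagcct

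Over the whole span, YY1 had about its genome-wide density per megabase and SP1 was sparser, while ZNF143 and NRF1 had too few summits to place them above or below the genome. The span is rich in starts, with 53 clustered protocadherins in 727 kb against 19970 protein-coding genes in 3031 Mb. Density per megabase is therefore not density per start. ZNF143 had 1 summit in the 727 kb, SP1 8, NRF1 6 and YY1 25. Per megabase this was 1.38, 11, 8.25 and 34.4, against 5.33, 41.6, 12.9 and 35.2 for chromosomes 1 to 22 and X. The ratio to the genome was 0.264 for SP1 (Wilson 95% interval 0.134 to 0.522, counting error only). It was 0.978 for YY1 (0.663 to 1.44), 0.639 for NRF1 (0.293 to 1.39) and 0.258 for ZNF143 (0.0455 to 1.46), intervals that include 1. Summits of 1 peak are not independent: the 6 NRF1 summits lay in 4 peaks and the 25 YY1 summits in 20. SP1 and ZNF143 summits share peaks elsewhere in the genome. All of these intervals are therefore too narrow, and none is a test. The NRF1 ratio was 1.06 with the top 50% of the list by score and 1.29 at equal list lengths, and the SP1 ratio was 0.421 when peaks were counted. No peak number was skipped in this span in any list, so no peak was removed there after numbering.

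Summits gathered in the PCDHG end of the span. The PCDHA segment, 226 kb, held 3 YY1 summits and none of the other lists. The PCDHB segment, 198 kb, held 3 YY1 and 1 SP1. The 81.1 kb between PCDHB and PCDHG held the 1 ZNF143 summit, 2 SP1, 3 NRF1 and 8 YY1, and the 182 kb of PCDHG held 4 SP1, 3 NRF1 and 10 YY1. Long stretches were empty. SP1 had no summit for 315 kb across all 15 PCDHA starts, and 1027 gaps in that list (0.814%) were at least as long. NRF1 had none for 594 kb across 31 starts, PCDHA1 to PCDHB15 (883 gaps as long, 2.26%). ZNF143 had none for 602 kb across the same 31 (1147 gaps, 7.11%). From PCDHA12 to PCDHAC2 there was no summit of any list for 172 kb (2345 gaps between summits of any list, 0.814%). Gaps are mostly short, with a median of 2.62 kb for SP1. These shares of gaps therefore do not give the share of the genome that lies in such stretches, which was not computed.

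**Figure D3:**
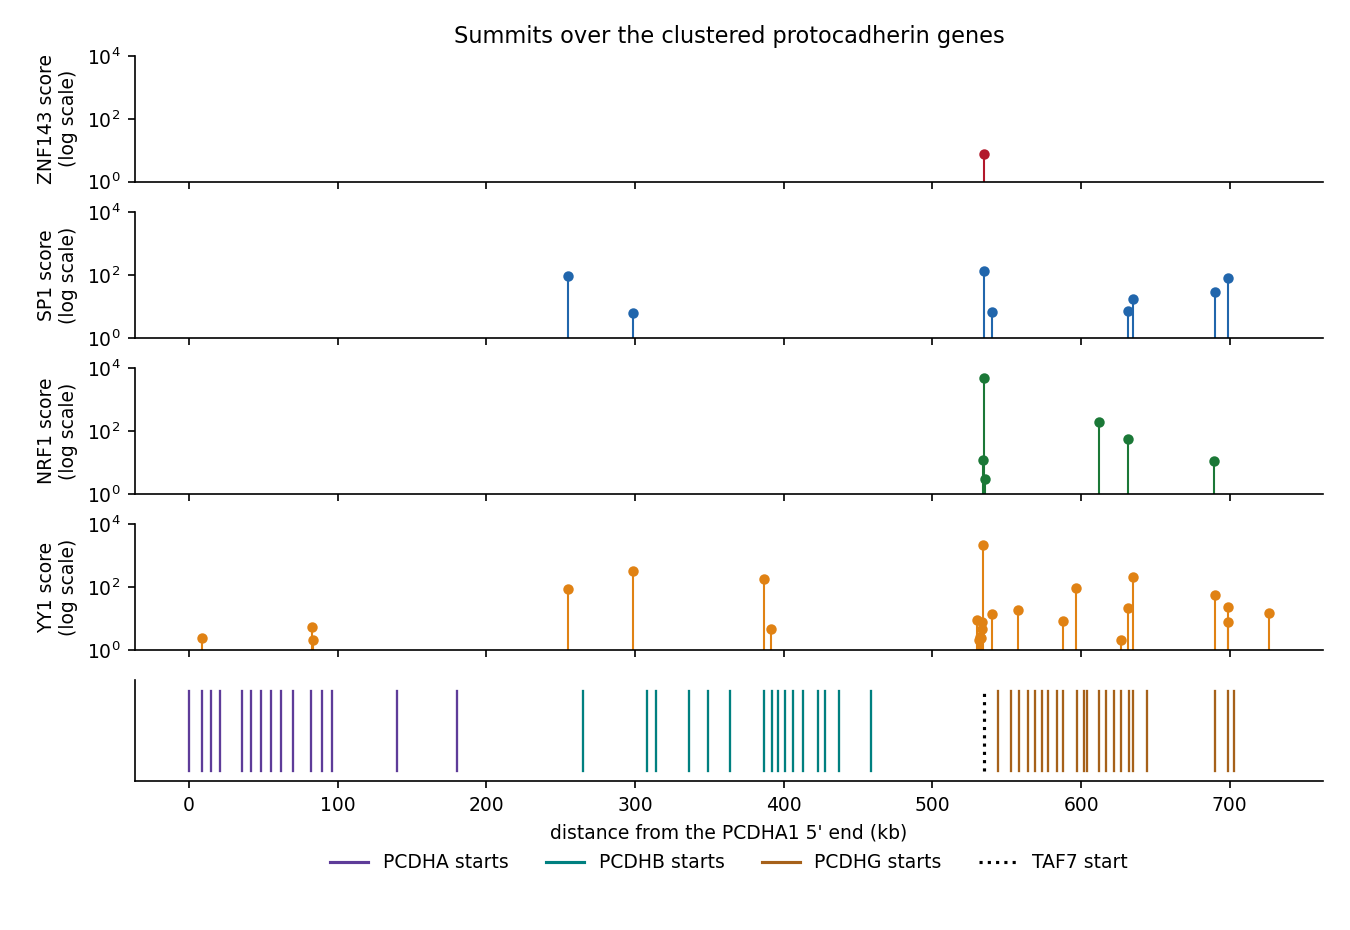
Summits of each list by distance from the 5′ end of PCDHA1 in kb (horizontal axis) and score on a log scale (vertical axis, one panel per list); the lowest panel marks gene starts by cluster and the start of TAF7. The ZNF143 panel has 1 point, at TAF7, and the SP1 and NRF1 panels are empty over the PCDHA starts.

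The ZNF143 summit lay at TAF7, a subunit of the general transcription factor TFIID, which lies between PCDHB and PCDHG on the minus strand (chr5:141259884-141320784). All 4 lists had a summit within 500 bp of its start: ZNF143 with 7.64 at +129 bp, SP1 with 135 at +63 bp, NRF1 with 4885 at −78 bp and YY1 with 2133 at +331 bp. The nearest clustered protocadherin start, PCDHGA1, was 9859 bp from the ZNF143 summit and had no summit. A further 6 YY1 summits within TAF7, in 4 peaks, had scores of 2.14 to 9.33. SLC25A2, a mitochondrial carrier gene, and ENSG00000279983 also start in the span, and had none. On the right, DIAPH1, which encodes an actin-nucleating formin, had all 4 lists (10.6, 544, 935 and 94.3 in the order above). On the left, ZMAT2 had none at the start of its gene record and all 4 within 500 bp of a later coding transcript start (15.5, 664, 8271 and 5053).

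The median distance from a clustered protocadherin start to the nearest ZNF143 summit was 109 kb, against 20.1 kb for all genes. For SP1 it was 50.4 against 0.226 kb, for NRF1 80.7 against 0.607 kb and for YY1 9.76 against 0.270 kb. The 12 protocadherins outside the clusters had a longer median for ZNF143, 156 kb. Theirs were short for SP1 (0.07 kb), NRF1 (0.226 kb) and YY1 (0.126 kb). PCDHB1 was the farthest from ZNF143, at 269 kb. Of the 27 protein-coding genes that start outside the span and within 500 kb of it, 20 had a summit of any list, and 12 had ZNF143.

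Outside protein-coding starts, summits of YY1 and SP1 also lay together. Between PCDHAC2 and PCDHB1, YY1 (88.0) and SP1 (92.8) summits lay 62 bp apart, 10125 and 10063 bp upstream of PCDHB1 and 344 and 406 bp upstream of the lncRNA ENSG00000288892. This is an intergenic position, and the SP1 summit was the second highest of its list in the span. YY1 at 15.2 was in the last exon shared by the 22 PCDHG genes. SP1 also had 6.55, with YY1 at 14.2 beside it, at the lncRNA ENSG00000272070 upstream of PCDHGA1. NRF1 had 12.1 and 2.95, both in the TAF7 peak.

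CTCF was not measured, so only its consensus could be located. The span held 8 exact copies, 11 per megabase against 3.63 in the genome. Of these, 5 were on the plus strand, in coding exons of PCDHA4 (+612 bp), PCDHA7 (+597 bp), PCDHA9 (+1185 bp) and PCDHA13 (+606 bp) and in a shared PCDHG exon. The other 3 were on the minus strand, 2 of them between PCDHAC2 and PCDHB1 and 1 in the last PCDHG exon. Within 100 bp of a summit were 2 copies, both minus: 1 lay 66 bp from the SP1 summit upstream of PCDHB1 (middle of the copy to summit), and 1 lay 5 bp from the YY1 summit in the last PCDHG exon. The 4 PCDHA exon copies were at least 12769 bp from any summit.

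The family was poorer in G+C than other genes. Within 500 bp of the start the median G+C content was 44.4% (PCDHA 43.6%, PCDHB 42.5%, PCDHG 46.8%), against 59.2% for all genes. CpG observed over expected, 1 where CpG is as frequent as C and G allow, had a median of 0.652 (PCDHA 0.765, PCDHB 0.492, PCDHG 0.661), against 0.688 for all genes. All genes with a summit had 0.778 and those without had 0.274, while the 41 clustered protocadherins without a summit had 0.625. The 12 with a summit had 0.682. In PCDHG the 9 with a summit had 0.647 to 0.918 and the 13 without had 0.193 to 0.837, so the groups overlapped. PCDHAC1 and PCDHAC2, with 63.0% and 64.3% G+C, were the richest of the 53 and had no summit. Whether composition plays a part in the counts was not tested.

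**Figure D4:**
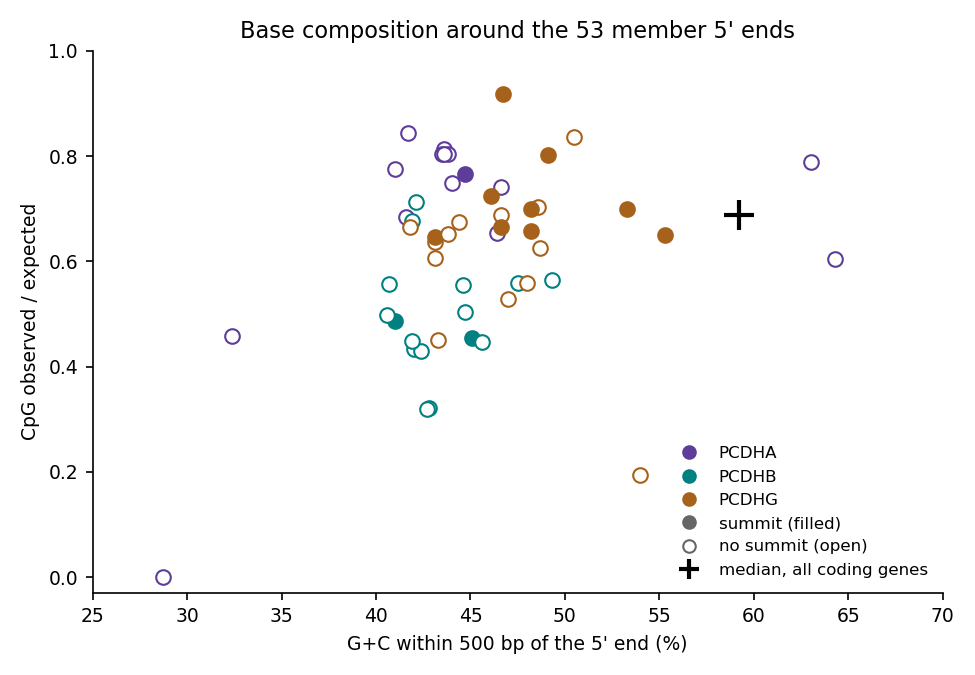
Each circle is 1 of the 53 genes, by G+C in % (horizontal axis) and CpG observed over expected (vertical axis) within 500 bp of the 5′ end, coloured by cluster and filled where a summit of any list was present. The cross is the median of all protein-coding genes, 59.2% and 0.688; filled and open circles overlap in PCDHG.

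The genes resemble each other, which limits where reads can be placed. Of the 31-base words in each 1000 bp window around a start, the median share found once in the genome was 86.4% in PCDHA (77.5% to 100%), 100% in PCDHB (46.2% to 100%) and 97.3% in PCDHG (58.2% to 100%). The lowest were PCDHB13 (46.2%), PCDHB8 (49.4%), which has a YY1 summit, and PCDHGB5 (58.2%), which has an NRF1 summit. Of the 40 summits in the span, 35 had unique central 31 bases. The handling of reads that align to several places was not given in the sources used here, and its part in the low counts was not tested.

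Protocadherins outside the clusters had summits more often. Of 12 such genes, scattered over 5 chromosomes, 10 had a summit: SP1 at 10, NRF1 at 8, YY1 at 8 and ZNF143 at 1. For ZNF143 their share was also under that of all genes, 8.33% against 31.7%. PCDH9 had all 4 lists, scored 137 (ZNF143), 3818 (SP1), 15093 (NRF1) and 388 (YY1). PCDH10 had SP1 at 1004 and YY1 at 71.3, PCDH7 SP1 at 133 and YY1 at 58.3, and PCDH1 and PCDH8 NRF1 at 18.3 each. PCDH20 and PCDH11X had none. In other gene clusters a summit was at 34 of 39 HOX genes (87.2%), with ZNF143 at 15, and at 182 of 249 ZNF genes of chromosome 19 (73.1%), with ZNF143 at 139. Those families lie on other chromosomes, their base composition was not computed, and no test was made between families.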

How the data were processed

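Per the labels, the 32 ChIP-seq samples of clone ZD29 were precipitated with HA, SP1, NRF1 or YY1 antibodies or in a mock. The submitters' processing notes name cutadapt, Bowtie2, SAMtools 1.16.1, MACS3 and bedtools, without roles, and the hg38 build. The deposited lists give 1 bp summits and, from the values, a score that is −log10 of either p or q (not stated which), from 2.00 upward. The labels tie the SP1 and ZNF143 lists to untreated and treated samples alike; the NRF1 and YY1 lists were taken by antibody name. Mock samples were not analysed here.

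Summits within 500 bp of the start of each GENCODE 44 gene record were counted in Python 3.11.15 with pysam 0.24.0, and each gene's highest score was kept. The procedure was tested on simulated data. Alternatives changed the window, the summits used, the start and the background.

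Genes, lists and motifs were chosen with earlier results of these data known. The rule for named genes took the 3 highest scores per cluster and list, the C-type isoforms, PCDHB1, neighbours, and the 3 highest scores per list in the span and in non-clustered protocadherins. The remaining genes with a summit were named after their values were seen. Of the positions this rule takes in the span, 1 is counted and plotted but not reported here.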

Additional observations from a re-analysis of the deposited data

How the results depend on the processing

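The 8 values for the 4 lists, genes with a summit at the start and density in the span relative to the genome, were recomputed under 40 alternatives, and 34 stayed within 1.5 times (counts) or within the counting interval (densities). No clustered protocadherin had ZNF143 under any of the 5 alternatives run for it, but most of these could not have changed the count. A narrower window or fewer summits cannot raise 0, and 16165 summits is the whole ZNF143 list. At 1000 bp the count was fixed too, since the nearest ZNF143 summit to a start was 9859 bp away. These settings are counted among the 34. With only the top 50% of each list by score, 7 genes had YY1 instead of 11, and the ZNF143 density ratio was 0. With 16165 summits in each list, the highest by score, 3 genes had YY1 and 0 had SP1, and the SP1 density ratio was 0. Without summits at the starts of other genes the ZNF143 density ratio was 0, since its 1 summit is at TAF7. By construction both of the settings on the lists drop lower-scoring summits, except that 16165 summits is the whole ZNF143 list. Of the density ratios inside their intervals, NRF1 turned from 0.639 to 1.06 and 1.29 under the same settings, and SP1 was 0.421 in peaks. At 1000 bp, or from any coding transcript start, PCDHA11 joined and 12 genes had YY1. No paired analysis was possible because the lists carry no value per sample, and for the same reason no sample could be left out. Depth is unknown, so a start without a summit is one with no peak called at the depth of these lists.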

Other observations

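The genes for known regulators of the clustered protocadherins were themselves well supplied with summits. Of 16 such genes (CTCF, cohesin subunits, DNA methyltransferases, SMCHD1, SETDB1, TRIM28, REST and WIZ among them), all 16 had an SP1 summit within 500 bp of the 5′ end, 15 had YY1, 11 had NRF1 and 8 had ZNF143. Among all protein-coding genes the shares were 59.1%, 57.8%, 48.3% and 31.7%.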
